A study of Mus musculus with 474 samples.

Results

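The genes Adgre1, Cd68, Csf1r, Mrc1, Lyz2, C1qa, C1qb, C1qc, Cd163 and Fcgr1, all in wide use as markers of macrophages, were followed through the skeletal muscle transcriptomes of the Diversity Outbred (DO) mice of this series. The 10 genes were picked by symbol from the 20612 genes in the deposited matrices, and all 10 were among the 18823 genes that passed the filter on low counts. DO mice are an outbred stock descended from several inbred founder strains, so that no 2 animals share a genotype. All animals were given a high-fat, high-sugar diet labelled as 45 percent fat from a young age and, per the study's methods, killed as adults, and no animal on another diet is compared here. Each animal gave 1 poly(A)-selected RNA-seq library from muscle (gastrocnemius, per the study's methods), and the library titles give the animal's sex and a number read here as its DO generation. The animals fell into 10 groups of 45 to 50, made of both sexes in each of generations 17, 18, 19, 21 and 23.

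Macrophages are phagocytic cells of the myeloid lineage that reside in most tissues and are joined by cells that mature from blood monocytes. In muscle they sit in the connective tissue around and between fibres, where they clear debris, support regeneration and respond to the lipid load of obesity. They depend on signalling through the receptor encoded by Csf1r, and the transcription factor PU.1 (encoded by Spi1) drives much of their gene programme. The 10 genes report on different properties of these cells, and none of them is a perfect label, since dendritic cells, monocytes and neutrophils express several.

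The sequences before the starts of C1qb, which encodes a subunit of complement C1q, and Fcgr1, which encodes an interferon-induced IgG receptor, are shown because these 2 genes stood at opposite ends of the co-variation described further on. Both are the 250 bases directly upstream of the RefSeq start on GRCm38.p6, minus strand, at chr4:136886201-136886450 and chr3:96293970-96294219. Capitals mark the PU.1 core GAGGAA, which reads TTCCTC on the other strand, and the interferon-gamma-activated site (GAS) TTCNNNGAA.
C1qb: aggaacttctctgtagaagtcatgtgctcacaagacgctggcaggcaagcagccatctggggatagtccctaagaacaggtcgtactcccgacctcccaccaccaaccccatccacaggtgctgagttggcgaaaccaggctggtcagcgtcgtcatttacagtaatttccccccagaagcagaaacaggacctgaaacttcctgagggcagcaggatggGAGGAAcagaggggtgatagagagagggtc
Fcgr1: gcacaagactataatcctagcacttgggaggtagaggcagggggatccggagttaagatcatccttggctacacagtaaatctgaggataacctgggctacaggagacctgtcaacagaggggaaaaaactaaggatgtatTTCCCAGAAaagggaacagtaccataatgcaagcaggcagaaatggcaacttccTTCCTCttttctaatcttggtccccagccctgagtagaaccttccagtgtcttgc
The C1qb window held the PU.1 core 30 to 25 bases before the start. The Fcgr1 window held it 55 to 50 bases before the start, together with a GAS match, TTCCCAGAA, farther upstream. Of the 10 genes, 7 had an entry in the RefSeq promoter table used (Cd68, Mrc1, Lyz2, C1qb, C1qc, Cd163 and Fcgr1), and 5 of those 7 windows held the PU.1 core on either strand against 23.3% of 32851 promoters of the same length. The GAS pattern was in the Fcgr1 window alone among the 7, against 7.02% of all promoters. The windows of Lyz2 and Cd163 held neither pattern, and such matches describe letters, not occupied sites.

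The receptors among the 10 are spread over the genome (positions on GRCm38, GENCODE release M21). Csf1r, the receptor for CSF1 and IL-34, lies on chromosome 18 from 61100598 to 61132149, and its 3′ end overlaps the antisense gene Hmgxb3. Adgre1, which encodes the F4/80 antigen, lies on chromosome 17 from 57358691 to 57483527. Mrc1, the mannose receptor CD206 of resident macrophages, lies on chromosome 2 from 14229392 to 14332057, and Cd163, the scavenger receptor for haptoglobin-bound haemoglobin, lies on chromosome 6 from 124304656 to 124330527. Fcgr1, the high-affinity receptor for IgG and a gene induced by interferons, lies on chromosome 3 from 96282909 to 96293969. Cd68, a glycoprotein of the endosome and lysosome, lies on chromosome 11 from 69664213 to 69666153. Lyz2, the lysozyme of macrophages and neutrophils, lies on chromosome 10 from 117277331 to 117282321, next to its close copy Lyz1 (117287797 to 117292868), so the split of reads between these copies is uncertain. The 3 subunits of complement component C1q, the recognition molecule of the classical complement pathway, are encoded side by side on the minus strand of chromosome 4 in the order C1qb, C1qc, C1qa, within 18675 bases (136880129 to 136898803).

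Library totals ran from 35.9 to 165.7 M counts with a median of 79.3 M in both sexes. Genes of fast fibres summed to a median of 189546 CPM (counts scaled to the library total with TMM factors, which correct for library composition) in these libraries, and the 10 macrophage genes summed to a median of 104.97 CPM (43.9 to 313.1). A check of the sex-linked transcripts Xist and Ddx3y set 5 libraries apart, of which 3 had both near 0, 1 labelled female had a trace of Ddx3y (0.133 CPM) beside its Xist and 1 labelled male had Xist at 13.4 CPM beside its Ddx3y. No call between the sexes or generations changed for the 10 genes when these 5 were left out. In 31 libraries (22 female, 9 male) the summed level of 7 T and NK cell genes was above 5 CPM, with a median of 29.0 CPM there and 0.551 CPM in the other libraries, a limit chosen after the values were seen and with no gap in the distribution (the nearest libraries stood at 4.72 and 5.29 CPM). Values without these libraries are given beside the main results. In bulk RNA, more macrophages and more of a transcript per macrophage cannot be told apart, and every level below is a share of the whole muscle library.

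**Figure D1:**
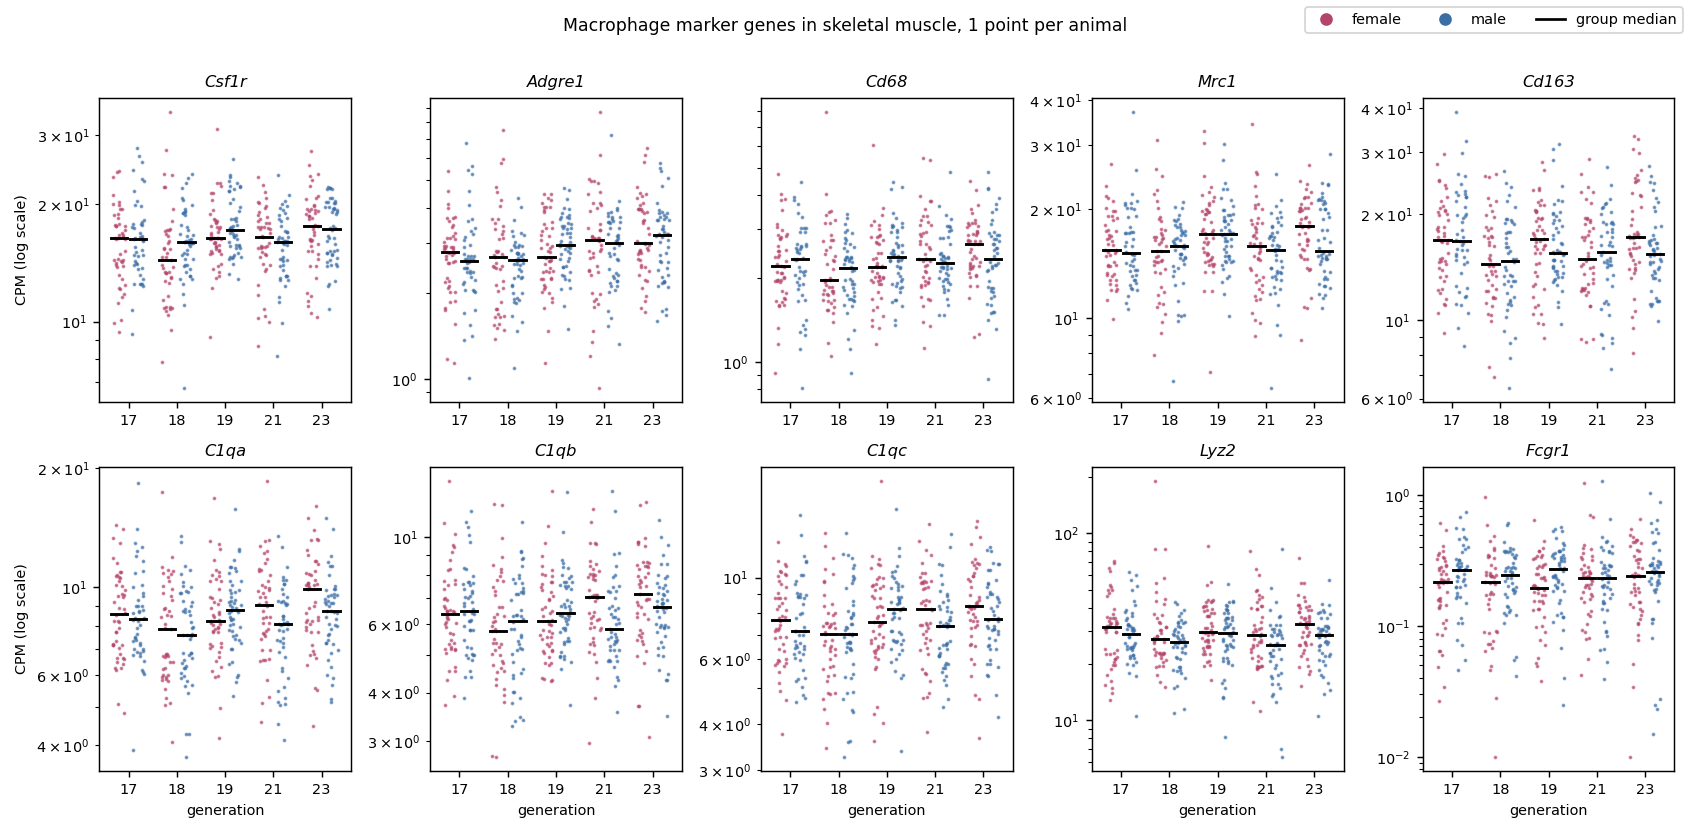
Level of each of the 10 genes in CPM (log axis) in every animal, by sex and generation, with 1 point per library and a bar at each group median. The 10 groups overlap for every gene, and the 2 libraries with 0 Fcgr1 counts are drawn at the foot of the axis.

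Lyz2 was the most abundant of the 10 transcripts, both as CPM and per length of exon sequence. Its level ran from 6.37 to 191.4 CPM with a median of 28.6, or 21.7 CPM per kilobase of exon. Per kilobase it was followed by C1qa at a median of 8.11, C1qb at 5.82 and C1qc at 3.90, so the 3 C1q subunits stood together below lysozyme. The next 3 were the receptors Cd163 at 2.93, Csf1r at 2.82 and Mrc1 at 2.53 CPM per kilobase, which ran over animals from 6.41 to 6.76 CPM at the low end up to 34.4 to 39.03 CPM at the high end. Cd68 followed at 1.83, Adgre1 at 0.872 and Fcgr1 at 0.0919 CPM per kilobase. Neighbours in this order overlapped over animals. Fcgr1 was the lowest, with a median of 18 counts per library. In the 2 female libraries with no Fcgr1 count, 3 counts would have been 0.0498 and 0.0471 CPM, so the transcript was not detectable at that depth.

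The spread over animals was wide for all 10 genes, and wider for some than for others. The coefficient of variation of the CPM within a sex and generation averaged 21.8% for Csf1r and 24.1% for Mrc1, the receptors that varied least, and 26.5% to 27.3% for the 3 C1q genes. It was 29.0% for Cd163, 32.1% for Cd68, 33.1% for Adgre1 and 41.02% for Lyz2. Fcgr1 reached 61.7%, where counting alone made up 12.6% of the variance. For the other 9 genes counting made up between 0.238% (Lyz2) and 4.92% (Cd68).

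The highest and lowest values were often shared by several of the genes. Lyz2, Csf1r and Cd68 all peaked in 1 female of generation 18, DO191, at 191.4, 34.4 and 7.95 CPM. That library also had the highest T and NK cell sum of all, and its Lyz2 level stood apart from the next highest, 85.2 CPM. Its Cd163 level, by contrast, was 11.6 CPM, under the lower quartile of either sex. Mrc1 and Cd163, the receptors of resident macrophages, peaked together in another animal, the generation 17 male DO072, at 37.01 and 39.03 CPM. The generation 21 female DO333 had the highest Adgre1 (8.70 CPM) and C1qa (18.6 CPM). At the other end, 1 generation 18 male, DO184, had the lowest Csf1r (6.76 CPM), C1qa (3.74 CPM), C1qc (3.26 CPM) and Cd163 (6.43 CPM).

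Between the sexes, 2 of the 10 genes differed, in opposite directions (edgeR quasi-likelihood test with generation as a covariate, Benjamini-Hochberg adjustment over 18823 genes). Lysozyme Lyz2 was lower in males and the IgG receptor Fcgr1 higher, while the other 8 differed by no more than 0.062 on the log2 scale. By comparison, 55% of all tested genes differed between the sexes, 24.4% higher and 30.6% lower in males, beside 2 of the 10 macrophage genes. Their median difference, male minus female, was −0.041 on the log2 scale beside −0.014 for all tested genes, and it was −0.015 without the 31 lymphocyte-rich libraries.

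Lyz2 ran from 11.2 to 191.4 CPM in females with a median of 29.7, and from 6.37 to 82.02 CPM in males with a median of 27.6. The sexes overlapped over most of this range, with the upper quartile at 38.8 CPM in females and 32.4 CPM in males. The fitted difference was −0.24 on the log2 scale (SE 0.051, 95% interval −0.34 to −0.14, adjusted p = 1.06e-05 by edgeR), or 0.847-fold in males. Its sign was the same in 5 of 5 generations, between −0.41 and −0.094, and the difference passed the threshold alone in 2 of them, beside 20.7% to 25.4% of all tested genes in single generations.

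Fcgr1 ran from 0 to 1.24 CPM in females with a median of 0.216, and from 0.015 to 1.297 CPM in males with a median of 0.256. Here too the sexes overlapped almost fully. The fitted difference was 0.22 on the log2 scale (SE 0.082, 95% interval 0.055 to 0.38, adjusted p = 0.0179 by edgeR), or 1.16-fold. It was positive in 5 of 5 generations, between 0.02 and 0.36, and passed the threshold alone in none of them.

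The other 8 genes did not pass the threshold. Csf1r ran from 7.88 to 34.4 CPM in females and from 6.76 to 27.9 CPM in males, and the median was 16.3 CPM in both. Its difference was 0.034 on the log2 scale with a 95% interval of −0.023 to 0.090 (adjusted p = 0.33 by edgeR). Of the C1q genes, C1qa had the largest difference, −0.062 with an interval of −0.13 to 0.0059 (adjusted p = 0.118 by edgeR), from 4.08 to 18.6 CPM with a median of 8.50 in females and from 3.74 to 18.4 CPM with a median of 8.33 in males. Median levels in females and males were 6.38 and 6.30 CPM for C1qb, 7.64 and 7.44 CPM for C1qc, 16.3 and 15.8 CPM for Mrc1, and 16.5 and 15.6 CPM for Cd163. For Adgre1 they were 2.83 and 2.78 CPM, and for Cd68 they were 2.28 and 2.31 CPM. With library totals in place of TMM factors, the median gene shifted to −0.046 on the log2 scale, C1qa (−0.10, adjusted p = 0.0163) and Mrc1 (−0.076, adjusted p = 0.0408) passed the threshold of the edgeR test as well and Fcgr1 (0.18, adjusted p = 0.0629) no longer did.

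**Figure D2:**
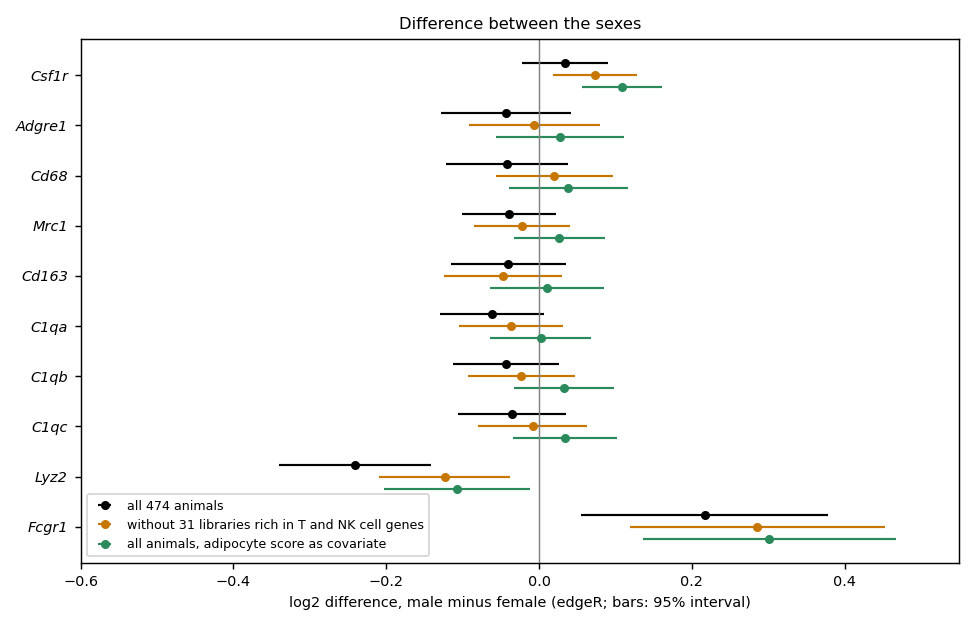
Difference between the sexes (male minus female, log2) for each of the 10 genes with its 95% interval, in all libraries, without the 31 in which T and NK cell genes summed to over 5 CPM, and with the adipocyte score as a covariate. Lyz2 is at −0.24, −0.12 and −0.11 in the 3 fits and Fcgr1 at 0.22, 0.29 and 0.30.

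The size of the Lyz2 difference moved with the lymphocyte-rich libraries, of which 22 of 31 were female. Lyz2 had a median of 53.96 CPM in those 31 libraries (35.2 to 191.4) and 27.8 CPM in the others (6.37 to 62.3). Cd68 had medians of 3.36 and 2.24 CPM in the same 2 sets, Csf1r 20.0 and 16.1 CPM, and Cd163 17.9 and 15.8 CPM, while the leukocyte gene Ptprc had 36.03 and 2.89 CPM. All 7 of the T and NK cell genes were lower in males in all libraries, and 1 of the 7 was without the 31. The 31 libraries were picked by the sum of these same 7 genes. The drop thus follows from the selection and is not a separate result.

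Without those libraries, chosen after the values were seen, the Lyz2 difference was −0.12 on the log2 scale (SE 0.044, adjusted p = 0.0117 by edgeR), smaller but still past the threshold. The Fcgr1 difference was then 0.29 (SE 0.085, adjusted p = 0.00226 by edgeR), and Csf1r, higher in males by 0.073 (SE 0.028, adjusted p = 0.0199 by edgeR), was also called. Lyz1, the neighbouring copy of Lyz2, had medians of 1.91 CPM in females and 0.990 CPM in males, a difference of −0.71 (SE 0.10, adjusted p = 1.63e-10 by edgeR) that was −0.54 without the 31 libraries (adjusted p = 2.25e-07). Genes of adipocytes also moved with sex, 8 of 9 being lower and 1 higher in males (6 lower and 1 higher without the 31 libraries). With the adipocyte score as a covariate, the Lyz2 difference was −0.11 (adjusted p = 0.0525 by edgeR), the Fcgr1 difference 0.30 (adjusted p = 0.00115) and the Csf1r difference 0.11 (adjusted p = 0.00017). The adipocyte score itself differed between the sexes, and its part in these differences was not tested.

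**Figure D3:**
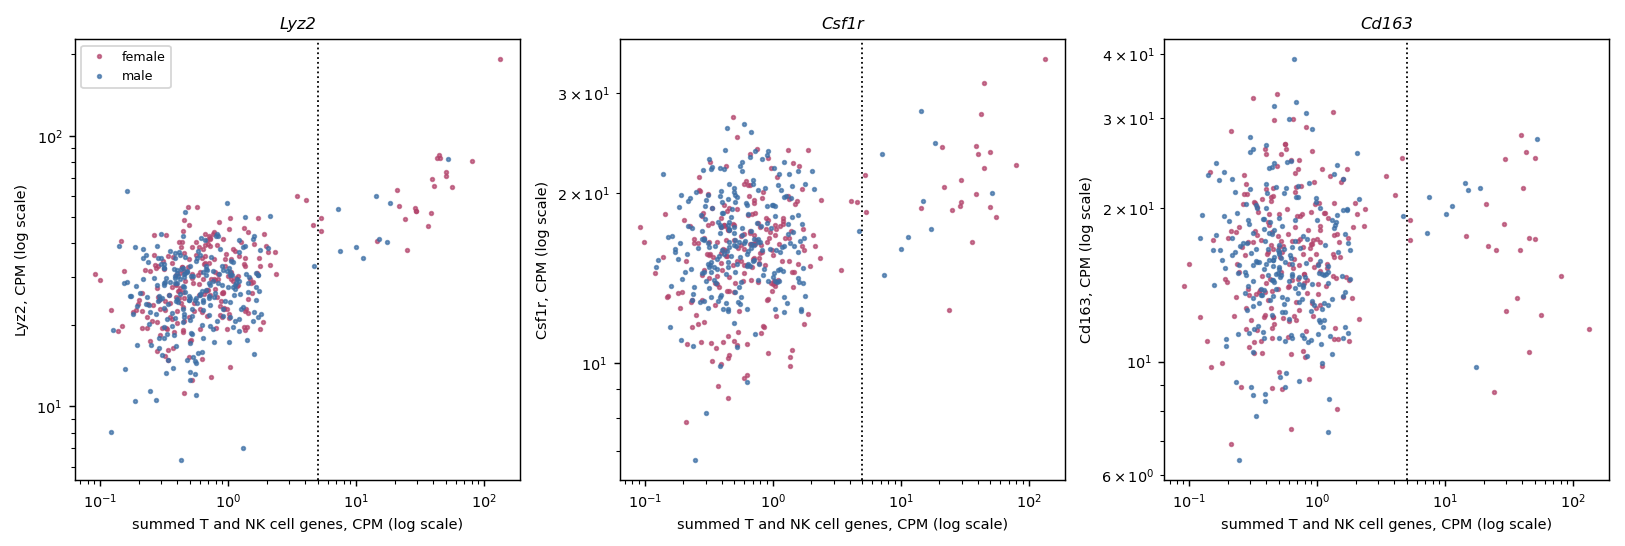
Levels of Lyz2, Csf1r and Cd163 in CPM against the summed level of 7 T and NK cell genes in CPM, both on log axes, with 1 point per library, coloured by sex, and the limit of 5 CPM drawn as a dotted line. Right of the line Lyz2 lies between 35.2 and 191.4 CPM, while Cd163 lies between 8.71 and 27.7 CPM, within its range in the other libraries.

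Across generations, 4 of the 10 genes differed, namely the receptors Adgre1, Csf1r, Mrc1 and Cd163 (edgeR, 4 generation coefficients with sex as a covariate). The background was 7.56% of tested genes. The lysosomal genes Cd68 and Lyz2, the 3 C1q subunits and Fcgr1 did not pass the threshold. The range of the fitted generation levels had a median of 0.19 on the log2 scale over the 10 genes and 0.11 over all tested genes. Such a range also widens with the spread between animals. In that spread, on the deposited variance-stabilised scale, the 10 genes lay between the 56.3 (Fcgr1) and 94.6 (Lyz2) percentiles of tested genes.

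Adgre1 had the widest range among the called genes, 0.27 on the log2 scale (adjusted p = 0.0173 by edgeR). Its medians were 2.70, 2.62, 2.92, 3.05 and 3.15 CPM in generations 17, 18, 19, 21 and 23, so the later generations lay higher, although each spanned most of the range of the others. Mrc1 had medians of 15.3, 15.8, 17.02, 15.5 and 17.2 CPM in the same order, with a range of fitted levels of 0.16 (adjusted p = 0.0234 by edgeR). Csf1r, at 16.3, 15.4, 16.7, 16.1 and 17.4 CPM, had a range of 0.14 (adjusted p = 0.0440 by edgeR), just inside the threshold. The Csf1r call was lost at nearly the same range with median-of-ratios size factors (adjusted p = 0.0513) and with no filter (adjusted p = 0.0511). Csf1r and Mrc1 had their highest medians in generations 19 and 23 and did not follow the order of generations. Cd163 had medians of 16.9, 14.6, 16.2, 15.3 and 16.1 CPM and a range of 0.21 (adjusted p = 0.0309 by edgeR). It was highest in generation 17 and lowest in generation 18.

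The other 6 genes had ranges of similar size. Those of the C1q genes were 0.20 for C1qa (adjusted p = 0.0799), 0.20 for C1qc (adjusted p = 0.101) and 0.17 for C1qb (adjusted p = 0.22), all by edgeR, and those of Cd68, Lyz2 and Fcgr1 were 0.19, 0.15 and 0.19. The lowest fitted level fell in generation 18 for 9 of the 10 genes, Lyz2 being lowest in generation 21. By group, the median was highest in females of generation 23 for 8 of the 10, and the ratio of the highest to the lowest group median ran from 1.18 for Mrc1 to 1.39 for Fcgr1. Since the lowest maximum of any group stood above the highest minimum for every gene, no 2 groups were apart.

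The generation calls rested on small differences, and markers of other cells moved with generation too. Of the genes of other cell types, 4 of 5 erythroid, 3 of 4 neutrophil and 3 of 9 adipocyte genes differed between generations. With the adipocyte score as a covariate, none of the 10 macrophage genes passed the threshold, the lowest adjusted p by edgeR being 0.0669 for Cd163, followed by 0.0854 for Adgre1, 0.0921 for Mrc1 and 0.15 for Csf1r. The ranges of their fitted levels were then 0.20 for Cd163, 0.21 for Adgre1, 0.14 for Mrc1 and 0.13 for Csf1r, close to those without the covariate except for Adgre1 (0.27). Without the 31 lymphocyte-rich libraries 5 passed, Adgre1 (adjusted p = 0.00475), Csf1r (0.0038), Cd68 (0.0146), C1qa (0.0355) and Mrc1 (0.0388), while Cd163 did not (0.0713), again by edgeR. The shares of all tested genes called with the adipocyte score and without the 31 libraries are not given here. The part of these other cells in the generation differences was not tested.

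The titles also carry a library number, and stretches of these numbers made 5 blocks of 91 to 96 libraries, each with both sexes and all generations. What the numbers stand for is not stated, so the blocks are a description of order only. With sex and generation as covariates, 4 of the 10 genes, the 3 C1q subunits and Mrc1, differed between blocks, which is below the 47.4% of all tested genes. C1qc had a range of 0.30 on the log2 scale (adjusted p = 2.08e-05 by edgeR), with medians of 6.70, 8.51, 7.28, 7.55 and 7.77 CPM in blocks 1 to 5. C1qb had a range of 0.23 (adjusted p = 0.00194) and C1qa of 0.22 (adjusted p = 0.00143), and all 3 subunits were lowest in block 1 and highest in block 2. Block 2 also had the highest median library total, 88.8 M counts against 76.2 to 81.1 M elsewhere. Mrc1 went another way, highest in block 1 and lowest in block 3, with a range of 0.17 (adjusted p = 0.0206 by edgeR). With library totals in place of TMM factors its range was 0.11 and the call was lost (adjusted p = 0.329).

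The sex differences of Lyz2 and Fcgr1 held their sign within blocks. Lyz2 was lower in males in 5 of 5 blocks, between −0.39 and −0.12 on the log2 scale, and Fcgr1 was higher in 5 of 5, between 0.14 and 0.26. Within single blocks the edgeR test called Lyz2 in block 4 (−0.39, adjusted p = 0.00568) and Fcgr1 in none, beside 19.6% to 28.6% of all tested genes in single blocks. It also called C1qa in block 4 (−0.20, adjusted p = 0.0164) and Cd163 in block 5 (−0.23, adjusted p = 0.0292), both lower in males. With block as a covariate, 3 of the 4 generation calls remained past the threshold, and Cd163 had an adjusted p of 0.0503 by edgeR at a range of 0.20. Within single blocks the generation test called 0, 0, 0, 0 and 1 of the 10 genes, and the share of all tested genes called there is not given here.

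**Figure D4:**
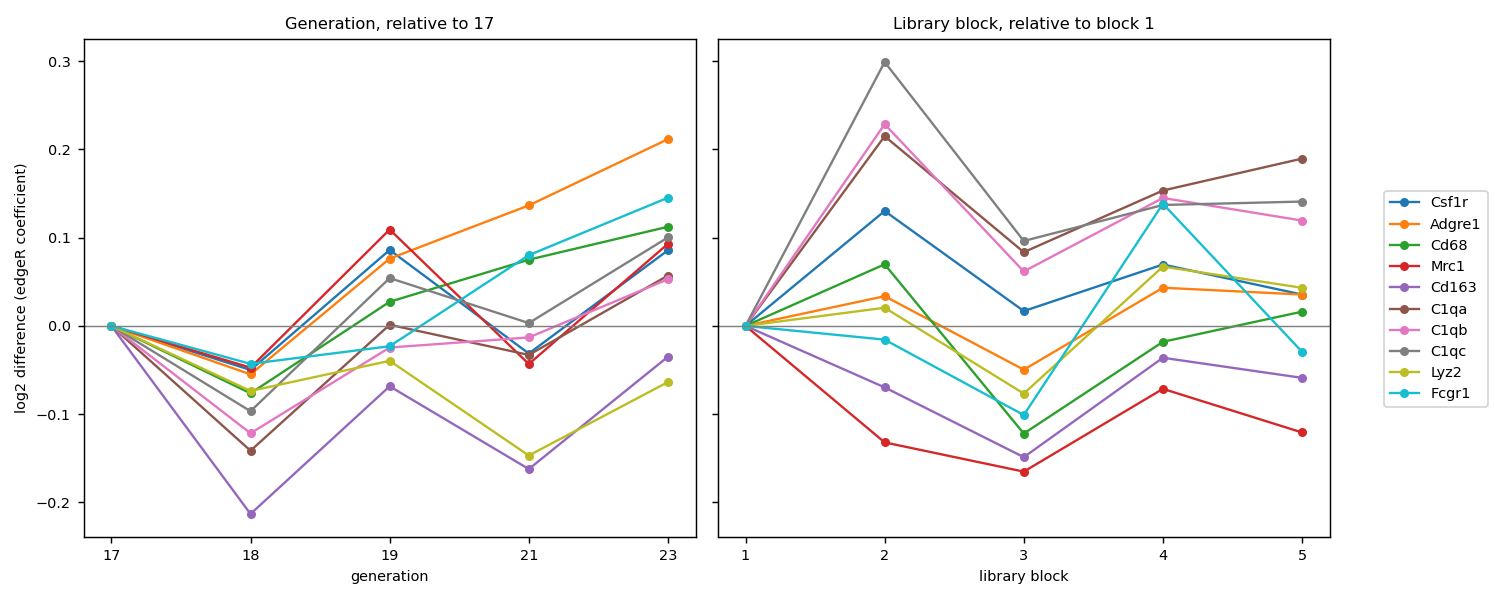
Fitted level of the 10 genes on the log2 scale by generation (left, relative to generation 17) and by library block (right, relative to block 1). Generation 18 is the lowest for 9 genes, and the 3 C1q genes rise together from block 1 to block 2.

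No gene of the 10 had a sex difference that itself differed between generations. The edgeR test of the sex-by-generation interaction called 0 of the 10, with 0 at an unadjusted p under 0.05 (lowest C1qa, p = 0.21), and limma on the variance-stabilised values also called 0, against 0.531% of all tested genes. The spread between animals did not pass the test either. On absolute deviations from the group median of the variance-stabilised values, limma called 0 of the 10, against 5.55% of tested genes (1.75% with more spread in males and 3.80% with less). The sign was negative, that is less spread in males, for all 10 genes. Since the 10 genes vary together, their signs are not independent, and the median over all tested genes was also negative (−0.0031). Adgre1 had the largest difference, −0.046 (SE 0.018), and was the 1 gene at an unadjusted p under 0.05 (p = 0.0122, adjusted p = 0.13 by limma). Without the 31 lymphocyte-rich libraries 7 of the 10 kept a negative sign.

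Across animals, the 10 genes rose and fell together. Correlations were taken over all animals on the deposited variance-stabilised values after removing sex and generation means, and all 45 pairs were positive. The study's methods include the removal of sequencing batch, and whether this was done to the deposited values is not stated. The median Pearson r was 0.55 (median Spearman rho 0.55), from 0.18 to 0.86. The largest permutation p of any pair was 0.0001 (adjusted p = 0.000143), and most pairs had the smallest p that 100000 permutations can give, 1e-05. Over all 177143253 pairs of tested genes the median r was −0.001, and 0.215% of them lay at or above the median of the macrophage pairs. Every pair was positive in each of the 5 library blocks, the lowest being 0.0092 for Cd163 with Fcgr1, and the median was 0.56 in females, 0.52 in males and 0.53 without the 31 lymphocyte-rich libraries. On log2 CPM computed from the deposited counts the median r was again 0.55.

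**Figure D5:**
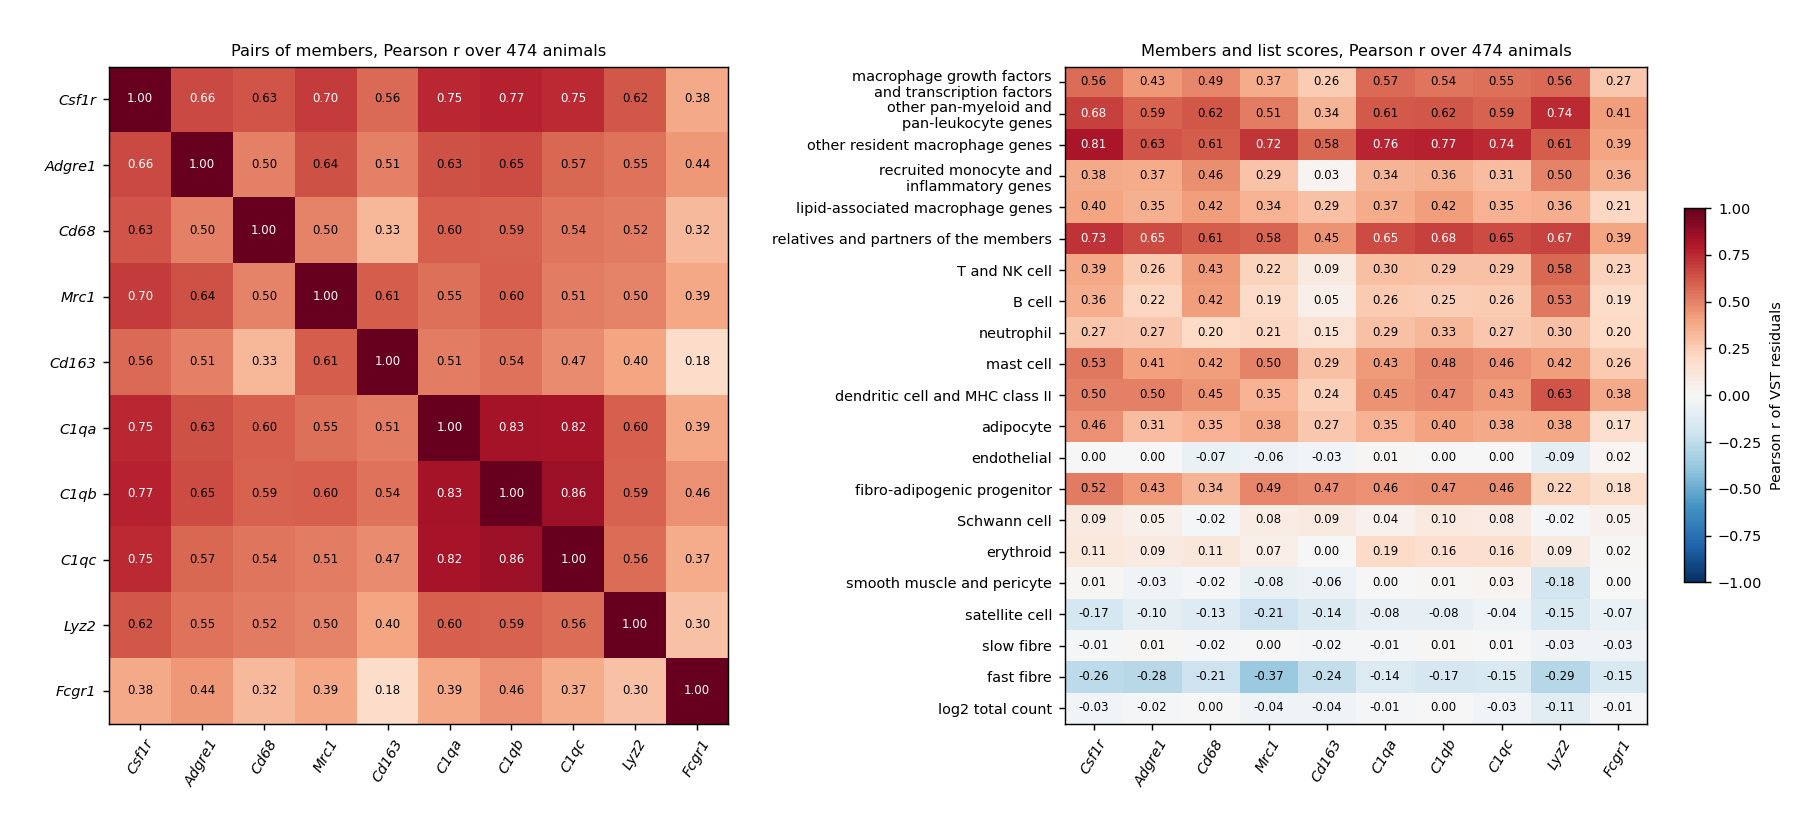
Pearson r over all animals of the residuals of variance-stabilised values after sex and generation, for the 45 pairs of genes (left) and for each gene with the mean score of other gene lists and with log2 library total (right). The C1q genes reach 0.82 to 0.86 with each other, and the row of other resident macrophage genes ranges from 0.39 for Fcgr1 to 0.81 for Csf1r.

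The tightest group was the C1q cluster, whose products assemble into 1 protein. C1qb and C1qc had an r of 0.86 (rho 0.85), C1qa and C1qb 0.83 (rho 0.82), and C1qa and C1qc 0.82 (rho 0.81), each with a permutation p of 1e-05 and an adjusted p of 1.52e-05. In CPM, C1qa stood at a median of 1.303 times C1qb, from 0.873 to 2.15 over animals, and C1qc at 1.202 times C1qb. The SD of the log2 ratio of 2 subunits was between 0.21 and 0.23, while the SD of a single subunit was 0.38 to 0.40 and counting alone would give 0.084 to 0.090.

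Csf1r had a median r of 0.66 with the other 9 genes and an r of 0.75, 0.77 and 0.75 with C1qa, C1qb and C1qc. With Mrc1 it had 0.70 (rho 0.70), between 0.53 and 0.85 over blocks. A first principal axis of the 10 genes held 60.7% of their variance and a second axis 8.55%, and the genes most correlated with the first axis were C1qb (0.90), Csf1r (0.89) and C1qa (0.88). Leaving out the 2 animals farthest from the median of a gene moved no pair below 0.17.

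At the edge stood Fcgr1 and Cd163. The median r of Fcgr1 with the others was 0.38 and that of Cd163 was 0.51, and the pair of these 2 receptors had the lowest value of all, 0.18 (rho 0.18, permutation p = 0.0001, adjusted p = 0.000143). Cd163 was nearest to Mrc1 (r 0.61, rho 0.59) and Fcgr1 to C1qb (r 0.46, rho 0.37). Fcgr1 is also the gene with the fewest counts, and the part of its counting error in these lower values was not tested.

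The genes most like each member across animals, among 18822 others, differed in kind. Pld4, an endolysosomal exonuclease, was among the 3 nearest non-members of Adgre1, Cd68, Csf1r, C1qa, C1qb and C1qc, with r between 0.61 and 0.74. Tyrobp, the adaptor DAP12, was among those of Cd68, Csf1r, C1qa and C1qb (0.60 to 0.67), and Fcgr3, the low-affinity IgG receptor, among those of Adgre1, C1qb and C1qc (0.62 to 0.69). Grn, the lysosomal protein progranulin, was near C1qa (0.67) and C1qc (0.63), Sema4a near Csf1r (0.67) and Myo1f near Adgre1 (0.59). Mrc1 and Cd163 had partners of their own. Mrc1 was nearest to F13a1, the coagulation factor XIII subunit made by resident macrophages (0.73), followed by Cd33 and the lectin Clec10a (both 0.62). Cd163 was nearest to the lectin Clec4a1 (0.63), Rnase4 (0.63) and F13a1 (0.62).

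Lyz2 and Fcgr1 had still other neighbours. Those of Lyz2 were the protease Ctss (0.72), Laptm5 (0.69) and the leukocyte integrin chain Itgb2 (0.69), 3 genes shared by many white blood cells. Those of Fcgr1 were B2m, the light chain of MHC class I (0.47), Irf9, a component of the interferon-activated factor ISGF3 (0.46), and Gm12250 (0.46). Among the 50 genes nearest to each, 8 were members for Adgre1, Csf1r, Mrc1 and C1qb, 7 for C1qa and C1qc, 6 for Cd163, 5 for Cd68, 4 for Fcgr1 and 1 for Lyz2.

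With 18 other genes of resident macrophages, Csf1r had an r of 0.81 (rho 0.78, adjusted p = 1.52e-05), the C1q genes 0.74 to 0.77 and Mrc1 0.72, while Fcgr1 had 0.39 (rho 0.36, adjusted p = 1.52e-05). With 14 pan-myeloid and pan-leukocyte genes, Lyz2 had the highest value, 0.74 (rho 0.72, adjusted p = 1.52e-05), and Cd163 the lowest, 0.34. Without the 31 lymphocyte-rich libraries the order was another, with 0.63 for Lyz2, 0.77 for C1qb and 0.76 for Adgre1, which had 0.59 in all libraries and 0.22 within the 31. With 9 genes of recruited monocytes and inflammation, Lyz2 had 0.50 (rho 0.37, adjusted p = 1.52e-05) and Cd163 0.026 (rho 0.015, adjusted p = 0.651). The Cd163 value ranged from −0.21 to 0.24 over the blocks.

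Of 140 relations between the 10 genes and 14 lists of other cells, 90 passed the threshold on the adjusted permutation p, 73 of them positive and 17 negative. The weakest relation that passed was that of Adgre1 with satellite cell genes (r −0.099, rho −0.078, adjusted p = 0.0401), and at an r of this size or larger in either direction 33.2% of all relations between the tested genes and these lists lay past it, 16.6% positive and 16.6% negative. With T and NK cell genes Lyz2 had the highest r, 0.58 (rho 0.41, adjusted p = 1.52e-05), which was 0.35 without the 31 lymphocyte-rich libraries and 0.77 within them, and Cd163 the lowest, 0.092 (rho 0.11, adjusted p = 0.0575). With B cell genes Lyz2 had 0.53 (rho 0.28, adjusted p = 1.52e-05), and 0.14 without the 31. With genes of fibro-adipogenic progenitors, the connective tissue cells of muscle, Csf1r had 0.52 (rho 0.51), Mrc1 0.49 (rho 0.49) and Lyz2 0.22 (rho 0.26), each with an adjusted p of 1.52e-05. With adipocyte genes the range was from 0.17 for Fcgr1 (rho 0.15, adjusted p = 0.000434) to 0.46 for Csf1r (rho 0.45, adjusted p = 1.52e-05), and the median r of the 45 pairs was 0.49 once the adipocyte score was removed. All 10 genes were also positive with mast cell genes (0.26 to 0.53), with genes of dendritic cells and MHC class II (0.24 to 0.63) and with neutrophil genes (0.15 to 0.33), and all 10 passed the threshold with each of these 3 lists, beside 37.4%, 44.3% and 22.5% of all tested genes at an r of 0.099 or more in either direction.

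Among the fibre lists, fast fibre genes ran against the macrophage genes. With fast fibre genes all 10 were negative, from −0.14 for C1qa (rho −0.14, adjusted p = 0.00352) to −0.37 for Mrc1 (rho −0.36, adjusted p = 1.52e-05), and the Mrc1 value was between −0.48 and −0.29 in every block. Of all tested genes, 32.9% had an r of −0.099 or lower with the fast fibre list. Values with slow fibre genes lay between −0.033 and 0.012, those with endothelial genes between −0.094 and 0.018 and those with Schwann cell genes between −0.020 and 0.095, none of them past the threshold. Satellite cell genes gave −0.21 to −0.040 (6 of 10 past the threshold, beside 25.3% of all tested genes at an r of 0.099 or more in either direction), smooth muscle and pericyte genes −0.18 to 0.028 (1 of 10, beside 36.7%) and erythroid genes −0.0011 to 0.19 (5 of 10, beside 18.96%). Levels here are shares of a library, so both sides of this relation are not measured independently. With the log2 library total, Lyz2 had −0.11 (rho −0.077, adjusted p = 0.0275) and the other 9 lay between −0.044 and 0.0015.

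Genes that act upstream of macrophages were also counted between the sexes. Of 14 growth factors, receptors and transcription factors of the lineage, 12 differed, 6 higher and 6 lower in males, against the background of 55%. Among them, the transcription factor genes Maf and Zeb2 were higher in males by 0.27 and 0.18 on the log2 scale, and the difference was −0.23 for the lipid-sensing receptor gene Nr1h3. These factors are also made by muscle fibres and other cells, and the list summed to a median of 349.3 CPM. The list median was −0.045, and 0.082 without the 31 lymphocyte-rich libraries, where 7 were higher and 5 lower in males. Csf1, the ligand of Csf1r, was higher in males by 0.085 (SE 0.024, adjusted p = 0.00148 by edgeR) and differed between generations (range 0.16, adjusted p = 0.0025), as did 3 others of the 14.

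The counts that follow stand beside 55% of all tested genes in all libraries, 24.4% higher and 30.6% lower in males. No such share is given here for the fits without the 31 libraries. Of 18 other resident macrophage genes, 5 were higher in males, among them Cbr2 (0.88) and the complement receptor gene Vsig4 (0.63), and 6 lower, among them Gas6 (−0.16) and Siglec1 (−0.46). Their median difference was −0.052, and without the 31 lymphocyte-rich libraries it was 0.038, with 6 higher and 5 lower in males. Of the 18, 2 differed between generations. Of 9 recruited monocyte and inflammatory genes 3 differed, Nos2 (0.35), Ccr2 (−0.60) and Plac8 (−0.69), with a list median of −0.12. Without the 31 libraries 3 of the 9 differed again, but 2 were higher and 1 lower in males, and the list median was 0.10. Of 10 lipid-associated macrophage genes 3 differed, Gpnmb (−0.37), Itgax (−0.60) and Trem2 (0.23), and without the 31 libraries 3 differed as well, 2 higher and 1 lower in males. Of 14 pan-leukocyte genes 13 were lower in males, with a median of −0.30, but without the 31 lymphocyte-rich libraries 5 of the 14 differed and the median was −0.046. Of 8 relatives and partners of the 10 genes all 8 differed, 7 of them lower in males, and 5 differed without those libraries.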

How the data were processed

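Muscle RNA-seq libraries of DO mice were analysed from 2 deposited matrices. Per the labels and the study's methods, poly(A) libraries were aligned with EMASE through GBRS to a transcriptome of the founder strains, mates being joined and treated as single reads. The first matrix holds the authors' expected counts per gene, deposited without normalization, which were rounded here to whole numbers. The second holds values the authors deposited after DESeq2's variance-stabilising transformation (VST), a score on a scale near log2 for abundant genes and compressed for genes of low count, such as Fcgr1. Per the study's methods, sparse transcripts were filtered out and sequencing batch was regressed out; in which of the deposited matrices batch was removed is not given in the sources used here, so the library blocks may describe values with part of the batch already taken out. The gene positions deposited beside them are on GRCm38. Versions and the use of strand are not given in the sources used here, so reads of overlapping antisense genes cannot be told apart.

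Sex and generation were read from the titles; that the number is a generation for all 5 values is an assumption, since the study's methods name 18, 19 and 21 but not 17 and 23, and wave, a covariate of the study, was not in the labels and was not fitted. Each library is 1 animal, so p-values measure the spread between animals. Kinship, a random effect in the study's genetic mapping, was not fitted here, so animals were treated as unrelated. Genes were kept by filterByExpr (minimum count 10), which removed 1789, scaled by TMM (factors 0.871 to 1.29) and tested with edgeR 4.0.16 in R 4.3.3. Spread was tested with limma 3.58.1 on absolute deviations of VST values. Adjusted p-values (Benjamini-Hochberg) cover all 18823 genes, with a threshold of 0.05. Blocks were planned as runs of library numbers broken by a gap over 3, which gave too few, so runs were also divided into stretches of 96. Correlations used VST residuals after sex and generation, 100000 two-sided permutations each and adjustment over all relations computed, in Python 3.11.15 with numpy 2.4.6. A list score is the mean standardised residual of its genes. In tests on simulated counts and values, genes changed by known folds were recovered. The folds set in the counts were larger than the sex and generation differences of the 10 genes in all libraries. Recovery at differences that small was not tested there.

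All 10 members are reported whatever their result, with the 3 non-members nearest to each, and of other lists at most the 4 genes with the lowest adjusted p per comparison. The members and lists were chosen with earlier results of these data known. Alternatives were other size factors, filters and tools (DESeq2 1.42.0, limma on VST), covariates, single blocks, sexes and generations, and libraries left out.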

Additional observations from a re-analysis of the deposited data

How the results depend on the processing

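Leaving out the 31 lymphocyte-rich libraries was chosen after seeing the data, and so was the division into stretches of 96 behind every value within or adjusted for blocks. The other alternatives were planned. Between the sexes, 2 of the 10 genes were called, beside 0 within blocks 1, 2 and 3, 1 within block 5 (Cd163), 0 within generations 17, 19 and 21, 1 within generations 18 and 23 (Lyz2 in both), and 1 with a minimum count of 100, which removed Fcgr1 from the genes tested. Between generations, 4 were called, beside 0 with the adipocyte score as a covariate, 0 within each of blocks 1 to 4, 1 within block 5, and 0 in females alone and in males alone. The single strata hold fewer animals, and a range of fitted levels widens with noise, so its size there cannot show whether a difference held. For Cd163 it was 0.26 in females and in males and 0.26 to 0.54 in blocks, and for Adgre1 0.25, 0.32 and 0.21 to 0.61. Mrc1 had 0.16, 0.19 and 0.073 to 0.38, and Csf1r 0.19, 0.18 and 0.12 to 0.36. Fcgr1, never called between generations, had 0.71 in block 5. The shares of all tested genes called in these generation fits are not given here. Under the adipocyte score the fitted ranges were 0.20 for Cd163, 0.21 for Adgre1, 0.14 for Mrc1 and 0.13 for Csf1r, beside 0.21, 0.27, 0.16 and 0.14. The median r of the 45 pairs, 0.55, was 0.49 with the adipocyte score, 0.47 within generation 19 and 0.64 within block 2. DESeq2 gave −0.24 for Lyz2 (adjusted p = 4.71e-06) and 0.22 for Fcgr1 (adjusted p = 0.0138), and limma on VST −0.19 (adjusted p = 0.000118) and 0.056 (adjusted p = 0.0109), on a scale compressed at low counts.

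Sex differences that turned sign, all of genes not called in all libraries, were these on the log2 scale. With the adipocyte score they were 0.027 for Adgre1, 0.038 for Cd68, 0.026 for Mrc1, 0.0021 for C1qa, 0.032 for C1qb, 0.034 for C1qc and 0.011 for Cd163. Within block 1 they were 0.0084 for C1qa and 0.024 for Cd163, and within block 2 they were 0.12 for Cd68, 0.040 for C1qa, 0.013 for C1qb, 0.035 for C1qc and 0.071 for Cd163. Block 4 gave −0.095 for Csf1r, and block 5 gave 0.0091 for Cd68, 0.028 for Mrc1 and 0.026 for C1qb. Generation 17 gave 0.017 for Adgre1, 0.0038 for Cd68, 0.025 for Mrc1, 0.013 for C1qb and 0.069 for Cd163, and generation 18 gave 0.040 for C1qc. Generation 19 gave 0.091 for Adgre1, 0.093 for Cd68, 0.037 for C1qa, 0.038 for C1qb and 0.033 for C1qc, while generations 21 and 23 gave −0.043 and −0.018 for Csf1r. Without the lymphocyte-rich libraries Cd68 was 0.020, and with library totals Csf1r was −0.0057. Differences in spread without the lymphocyte-rich libraries were 0.00808 for Cd68, 0.0028 for Lyz2 and 0.000918 for Fcgr1. No paired analysis was possible because each animal has a number of its own. Depth limits Fcgr1 most, at a median of 18 counts.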
